A study of Mus musculus with 2 samples.

Results

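The genes described here move, store or buffer metal ions: the zinc transporter families Slc30a and Slc39a, the carriers of iron (Slc11a1, Slc11a2, Slc40a1), copper (Slc31a1, Slc31a2, Atp7a, Atp7b) and magnesium (Slc41a1 to Slc41a3), the ferritins, the transferrin receptor and transferrin, the ferroxidases Cp and Heph, and the metallothioneins. They were chosen by gene symbol as annotated on the array. The rule used no measured value, but earlier results of these data were known when the genes were chosen. These members comprised 45 genes and 66 probes of 27962 names and 41174 probes. RNA from microvesicles shed by cultured fat cells (adipocyte-derived microvesicles, ADMs) was compared with RNA of the donor cells on 2 Agilent arrays with 2 colours, 1 array per replicate. Both RNAs came from 3T3-L1 (CL-173) cells, a mouse embryonic fibroblast line that becomes adipocyte-like when induced, grown in high-glucose DMEM with 10% FCS. Induction used 10 µg/ml insulin, 0.25 µM dexamethasone and 0.5 mM 3-isobutyl-1-methylxanthine. Conditioned medium and cells were taken on day 11 after induction, and vesicles were collected by ultracentrifugation. Replicate 1 carried ADM RNA in Cy5 and cell RNA in Cy3, and replicate 2 carried them the other way round. The labels call the replicates biological, but all cells are of 1 line and both arrays lay on 1 slide, and the sources used here do not say whether cultures were grown apart.

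Cells take up most of their iron as transferrin, which binds the transferrin receptor Tfrc and is carried into endosomes, where Slc11a2 (DMT1) passes the iron into the cytosol. Iron that is not used is stored in ferritin, a shell of heavy (Fth1) and light (Ftl1) chains, or leaves through ferroportin (Slc40a1) with the help of the ferroxidases ceruloplasmin and hephaestin. Slc30a proteins lower cytosolic zinc by export or by loading organelles, Slc39a proteins raise it, and metallothioneins bind zinc and copper in the cytosol. Adipocytes make metallothioneins, whose genes are induced by glucocorticoids as well as by metals.

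Each probe has a net signal, which is the mean of its spot minus the local background in scanner units, and a log2 ratio of ADM over cell after normexp background correction and loess. Loess sets probes of one brightness to equality on average, so a positive ratio means a larger share of ADM RNA than in probes of similar signal, not more RNA per vesicle or cell. The channels were far apart before that step: the median net signal of the 18117 tested probes was 545 units for ADM RNA and 17.3 for cell RNA on replicate 1, and 208 and 36.5 on replicate 2. All 9 adipocyte marker genes were well above background in both RNAs on both arrays, and all 10 probes of 5 fibroblast marker genes were so in ADM RNA. None of the 3 hepatocyte markers was well above background in either RNA, and of 5 macrophage markers Cd68 and Cd14 were seen in ADM RNA on both arrays, while Ptprc, Adgre1 and Csf1r were seen there on neither. Of 7 probes of 3 red cell markers, 1 was seen in ADM RNA on both arrays and 3 in cell RNA, all dim, and the ratios of the 2 tested were -0.92 and -0.79. The exon or UTR that a probe lies in was not determined here. The precision of every ratio is limited by the number of arrays, which is 2.

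Most of these genes could be seen in vesicle RNA. Of the 66 probes, 49 (37 genes) were well above background in ADM RNA on both arrays, against 45.8% of all probes of the array, and 22 (20 genes) were so in cell RNA, against 23.8%. All 22 probes seen in cell RNA were also seen in ADM RNA, as were 90.4% of the 9811 probes of the array seen in cell RNA. A further 18 probes were seen in ADM RNA on both arrays and in cell RNA on neither, while 0 showed the opposite, against 13% and 1.77% of all probes. The 8 genes seen on both arrays in neither RNA were the zinc carriers Slc30a2, Slc30a3, Slc30a8 and Slc30a10, and Slc39a2, Slc39a4, Slc39a5 and Slc39a12. Since the ADM channel was the brighter on both arrays, a probe seen in it alone was not shown to be absent from the cells.

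**Figure D1:**
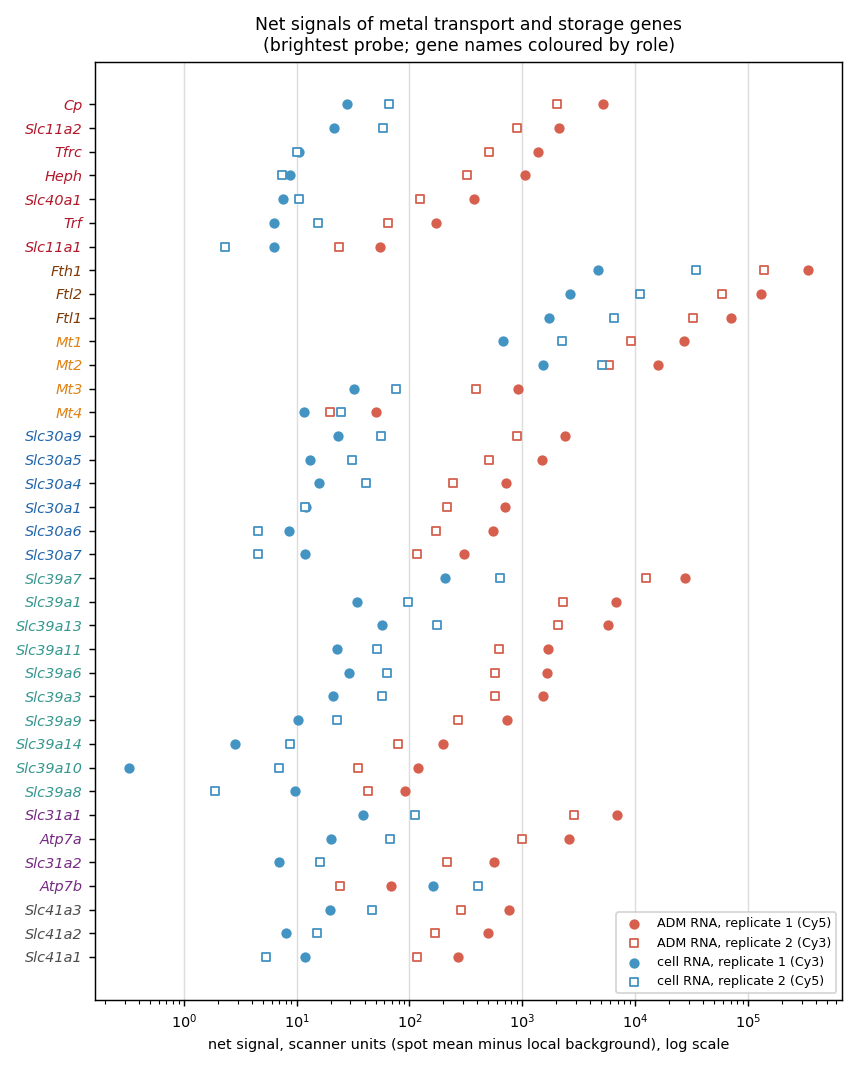
Net signal (spot mean minus local background, scanner units, log axis) of the brightest probe of each of the 37 genes well above background in ADM RNA on both arrays. Circles are replicate 1 and squares replicate 2, red is ADM RNA and blue is cell RNA, and gene names are coloured by role. On each array the ADM value lies above the cell value for every gene shown except Atp7b, where it lies below on both arrays, and Mt4, where it lies below on replicate 2.

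After loess, 41 member probes (34 genes) could be tested with limma, and 7 passed an adjusted p (Benjamini-Hochberg over all probes) of 0.05, with 3 higher and 4 lower in ADM RNA. These 7 are 17.1% of the member probes, beside 16.4% over all probes tested, and by direction 7.32% and 9.76%, beside 5.52% higher and 10.9% lower, so in this main fit the share that passed was near that of the array. Of the other member probes, 17 were not well above background on both arrays in either RNA, and 8 had lost a value to spot or background flags. The median ratio of the member probes was 0.23 and that of all tested probes 0.07. Positive ratios were found for 28 member probes (68.3%, beside 57.8% of all probes tested) and negative ones for 13. Replicates 1 and 2 matched in sign for 33 of the 41, and for 14672 of all 18117 tested. Only 16 of the tested member probes were well above background in both RNAs on both arrays. Of these, 50% were positive, with a median ratio of 0.067, beside 46.0% and -0.057 for all probes under that filter. Whether probes seen in ADM RNA alone raised the positive share was not tested. Among the 7 that passed, the higher probes belong to the ferroxidase Cp, the copper importer Slc31a1 and the zinc importer Slc39a1. The lower ones belong to the ferritin heavy chain Fth1, the metallothionein Mt1, the copper ATPase Atp7b and 1 of the 3 probes of the iron carrier Slc11a2. With spots of outlying local background kept, 0 member probes and 0 of 19807 probes in all passed in limma, with 3 and 158 at an unadjusted p under 0.05. With a variance trend 13 member probes passed (22.9% of all probes), those of Tfrc, Heph, Mt3, Slc30a5, Slc30a9, Slc39a14 and Atp7a among them. The split by direction followed the scaling. With median centring 29 member probes were higher and 1 lower (59.5% and 1.46% of all probes), with the processed signals 22 and 4 (32% and 14.2%). With the median background in place of outlying local ones, an alternative added after the data were seen, 49 member probes could be tested, and 5 were higher and 8 lower (7.19% and 12.9% of all probes). In either direction the member share was 73.2% beside 61% of all probes with median centring, and 63.4% beside 46.2% with the processed signals. It was 31.7% beside 22.9% with the trend, 26.5% beside 20.1% with the median background, and 50% beside 33.8% with the filter on both RNAs. Robust moderation (14.6% beside 14.7%) and the brightest probe per gene (17.6% beside 18.3%) gave member shares slightly below the array's. No set test was run.

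**Figure D2:**
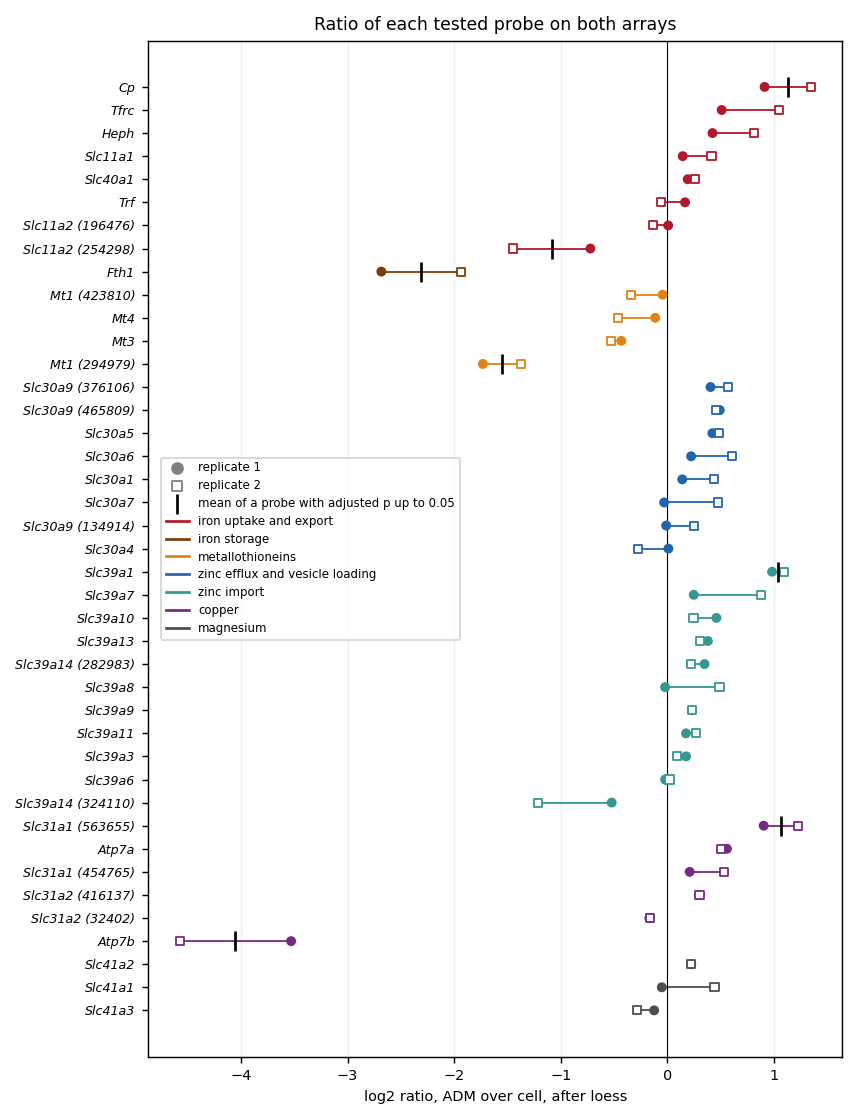
Log2 ratio of ADM over cell after loess for the 41 member probes tested, coloured by role. Filled circles are replicate 1, open squares replicate 2, and a black bar marks the mean of the 7 probes with a limma adjusted p up to 0.05. Probe numbers are given where a gene has more than 1 tested probe. Fth1, Mt1 and Atp7b lie left of 0 on both arrays here, while with median centring Fth1 and Mt1 lie right of 0.

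Among the genes of iron uptake and export, 1 probe was higher, 1 was lower and 6 did not pass, and all 7 genes were seen in ADM RNA on both arrays. Cp, which oxidises ferrous iron so that transferrin can take it up, gave 5240.2 units in ADM RNA and 27.9 in cell RNA on replicate 1, and 2048 and 65.6 on replicate 2 (probe at chr3:19721093-19721152, plus strand, build mm7). Its ratios were 0.91 and 1.35, so that both arrays were high, and the mean of 1.13 ± 0.31 (SD, n = 2), or 2.19-fold, passed (limma adjusted p = 0.0273). Cp was also higher with the scanner's processed signals (1.78) and with median centring (4.76, where the median of all probes was 2.04).

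Tfrc, the receptor that brings transferrin-bound iron into the cell, is printed 10 times on each array. Its net signal was 1383 units in ADM RNA and 10.4 in cell RNA on replicate 1, and 510.3 and 10.04 on replicate 2, with ratios of 0.51 and 1.05. Over its repeated spots the ratio ranged from 0.33 to 0.67 on replicate 1 (9 spots used) and from 0.96 to 1.13 on replicate 2 (10 spots), so the arrays did not overlap. Cell RNA was not well above background on either array. The mean of 0.78 ± 0.38 (SD, n = 2), or 1.72-fold, did not pass (limma adjusted p = 0.0592). A fold was also taken, per array, against the probe's own cell level or, if higher, the lowest signal among probes well above background. That fold came to 1.72 as well, an estimate from 2 arrays and not a lower limit. The mean passed when the median background stood in for outlying local ones (adjusted p = 0.0482).

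Heph, the membrane-bound ferroxidase related to Cp, gave 1055 and 8.79 units in ADM and cell RNA on replicate 1, and 325 and 7.48 on replicate 2. Its ratios of 0.42 and 0.82 were both positive, with a mean of 0.62 ± 0.28 (SD, n = 2) that did not pass (limma adjusted p = 0.0658). Slc40a1, the only known iron exporter of animal cells, gave 370.1 and 7.53 units on replicate 1 and 125 and 10.6 on replicate 2. Its ratios were 0.19 and 0.26 (limma adjusted p = 0.226), and like Heph it was not above background in cell RNA on either array.

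Slc11a2, the endosomal iron carrier, was read by 3 probes that differed. The probe at chr15:100395330-100395389 (minus strand, mm7) gave 114 units in ADM RNA and 27.03 in cell RNA on replicate 1, and 43.9 and 64.3 on replicate 2. With ratios of -0.72 and -1.45 its mean of -1.08 ± 0.51 (SD, n = 2), a share 2.12-fold lower in ADM RNA, passed narrowly (limma adjusted p = 0.0476). It did not pass without a filter on dim probes (limma adjusted p = 0.0527) or with robust moderation (limma adjusted p = 0.056). With median centring it stood at 0.093, below the median of all probes there, 2.04. It was lower and passed with the processed signals (-2.81, limma adjusted p = 0.0176) and with a normexp offset of 10 (-2.04, limma adjusted p = 0.0129). The probe 22183 bases further downstream, at the 3′ side, gave 2121 and 21.4 units on replicate 1 and 894 and 58.3 on replicate 2, and its only ratio, on replicate 2, was 0.52. The third probe lay between them and had ratios of 0.01 and -0.13. Thus the gene had no direction common to its probes.

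Transferrin (Trf), the iron carrier of plasma, gave 170.2 and 6.29 units on replicate 1 and 65.1 and 15.4 on replicate 2, with ratios of 0.17 and -0.06 (mean 0.05, limma adjusted p = 0.781). Slc11a1, the phagosomal relative of Slc11a2, gave 55.3 and 6.34 units and 23.7 and 2.31 units, with ratios of 0.14 and 0.41 (limma adjusted p = 0.208). Neither was above background in cell RNA, and neither passed after loess, while both did with the processed signals (Trf at 1.78, limma adjusted p = 0.0328, and Slc11a1 at 1.98, limma adjusted p = 0.0259).

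Ferritin messages were bright in both RNAs on both arrays. Fth1, the chain that oxidises iron as it enters the shell, gave 343372 units in ADM RNA and 4680 in cell RNA on replicate 1, and 139958 and 34542 on replicate 2 (chr19:9665120-9665179, plus strand, mm7). Its loess ratios were -2.68 and -1.93, both low, with a mean of -2.31 ± 0.53 (SD, n = 2) and a share 4.95-fold lower in ADM RNA than probes of similar signal (limma adjusted p = 0.0159). That direction depends on the scaling: the ratio was 3.77 with median centring, 1.73 above the median of all probes there, and -0.07 with the processed signals, where the arrays had opposite signs (0.24 and -0.39). With a variance trend it kept its value but did not pass (limma adjusted p = 0.478). Its net signal was 73.4-fold higher in ADM RNA on replicate 1, above the median of 65.1 over the 8866 probes well above background in both RNAs, and 4.05-fold on replicate 2, below the median of 8.84.

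The light chains lost their values to the flags on local background, Ftl1 on replicate 1 and the probe named Ftl2 on both arrays. Ftl1 gave 71136 and 1738 units in ADM and cell RNA on replicate 1 and 32381 and 6522 on replicate 2, where its ratio was -1.34. The Ftl2 probe, whose symbol RefSeq lists for a pseudogene (Ftl2-ps), gave 131316 and 2654 units on replicate 1 and 58299 and 11093 on replicate 2. Light chain copies are close in sequence, and these probes may not tell them apart. With the median background put in place of the outlying ones, Ftl1 stood at -1.79 (ratios -2.25 and -1.34, limma adjusted p = 0.0208) and Ftl2 at -1.87 (ratios -2.37 and -1.36, limma adjusted p = 0.0223). Fth1 was at -2.16 there, so all 3 ferritin probes were lower in ADM RNA after loess under that setting, whereas median centring turned Fth1 to the opposite side. Of 8 tested probes of adipocyte markers, which are bright too, 4 were lower after loess (Lpl at -2.75, Plin1 at -1.33, Retn at -1.16 and Fabp4 at -0.59), 1 was higher (Cd36 at 1.01) and 3 did not pass. Thus 62.5% passed, beside 16.4% of all probes tested (10.9% lower and 5.52% higher). Of 10 tested probes of fibroblast markers, with up to 79080 units of ADM RNA on replicate 1, 4 were higher, 0 lower and 6 did not pass. The part of brightness in the ferritin values was not tested.

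**Figure D3:**
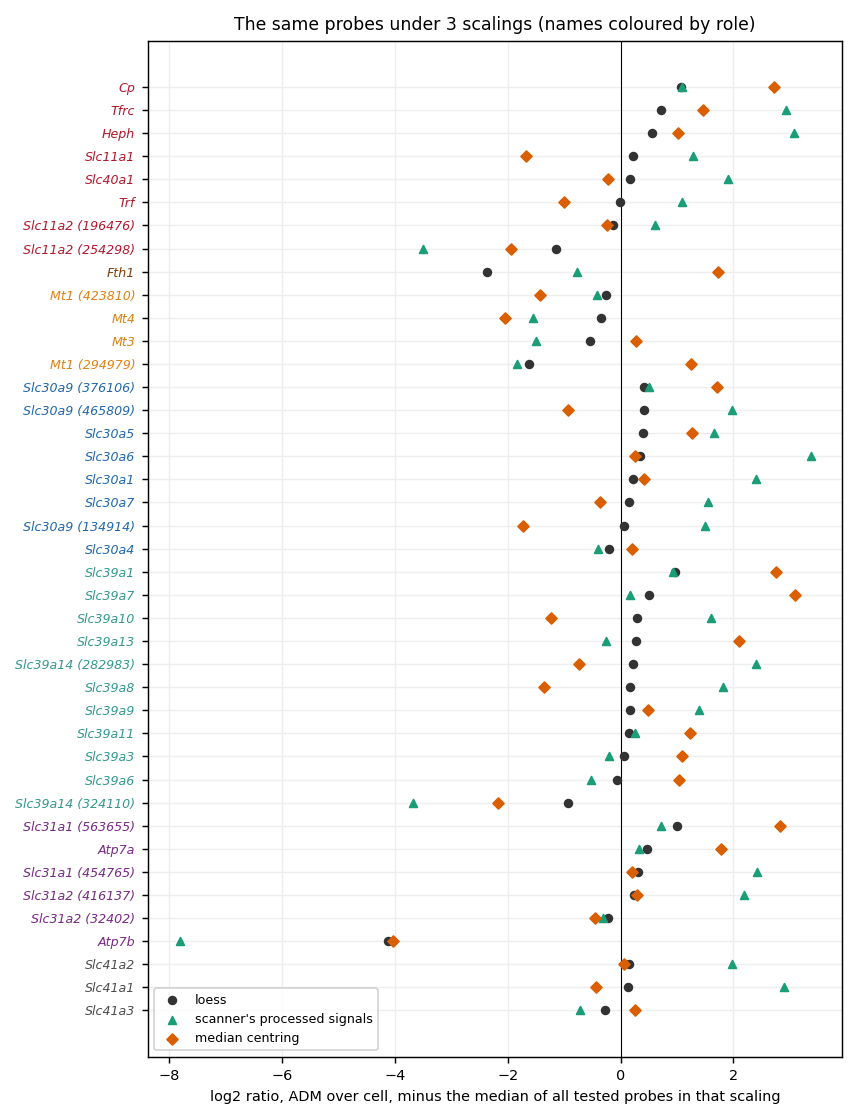
Log2 ratio of ADM over cell of the 41 member probes under loess (circles), the scanner's processed signals (triangles) and median centring (diamonds), each minus the median of all tested probes in that scaling. Cp, Slc39a1 and the brighter Slc31a1 probe lie right of 0 and Atp7b left of 0 in all 3, whereas Fth1 and the brighter Mt1 probe lie left of 0 in the first 2 and right of 0 with median centring.

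Of the metallothioneins, cysteine-rich proteins that hold zinc and copper ions, 1 probe was lower in ADM RNA after loess and 3 did not pass. All 4 tested ratios were negative, although median centring turned 3 of these probes positive and the processed signals 1. The dimmer Mt1 probe, at 0.61 with median centring, stayed below the median of all probes there, 2.04. The genes lie next to each other on chromosome 8, and Mt1 and Mt2 answer to metals through short metal response elements bound by the factor Mtf1. No link between these elements and the ADM ratios was tested. The 250 bases before the annotated starts of Mt1 and Mt2 are shown. They come from RefSeq (GRCm38.p6), Mt2 at chr8:94172368-94172617 and Mt1 at chr8:94178839-94179088, both on the plus strand, and capitals mark every match to TGCACNC or TGCGCNC on either strand.
Mt2: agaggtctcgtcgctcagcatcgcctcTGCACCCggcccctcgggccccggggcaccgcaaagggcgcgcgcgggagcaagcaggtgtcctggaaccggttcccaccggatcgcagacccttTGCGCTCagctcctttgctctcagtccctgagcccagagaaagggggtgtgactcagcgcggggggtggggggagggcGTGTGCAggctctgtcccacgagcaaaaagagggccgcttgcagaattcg
Mt1: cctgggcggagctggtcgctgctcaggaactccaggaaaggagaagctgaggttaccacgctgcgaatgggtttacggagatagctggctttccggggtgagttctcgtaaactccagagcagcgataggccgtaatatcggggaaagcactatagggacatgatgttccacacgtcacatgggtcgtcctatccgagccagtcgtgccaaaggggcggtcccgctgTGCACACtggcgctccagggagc
The Mt2 stretch holds 3 matches, 1 of them on the minus strand, and that of Mt1 holds 1. With the 50 bases after each annotated start included the counts were 4 and 3. The counts thus depend on where the annotated start lies, which was not checked here, and do not rank the 2 promoters. Of all 32851 RefSeq windows, 21.4% held a match in the 250 bases and 1.26% held 3 or more. For 36 member genes with a window, 21 of 44 windows (47.7%) held a match, among them those of Slc30a10 with 3 and Slc30a1 with 1. A match is a match of letters, and binding was not measured.

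Mt1, like Tfrc, is printed 10 times. Its probe at chr8:92769155-92769214 (plus strand, mm7) gave 27105 units in ADM RNA and 676 in cell RNA on replicate 1, and 9227 and 2240.5 on replicate 2. The ratio was -1.73 on replicate 1, with an SD of 0.075 over 7 spots used, and -1.37 on replicate 2, with an SD of 0.050 over 8 spots. The arrays thus differed from each other by more than the spots within either, and both were low. The mean of -1.55 ± 0.25 (SD, n = 2), 2.93-fold lower in ADM RNA, passed (limma adjusted p = 0.0149). With median centring it was 3.30, which is 1.25 above the median of all probes there, and with the processed signals -1.15, so the direction turned with 1 of these scalings. A second Mt1 probe, dim at 110.0 and 10.3 units on replicate 1 and 51.9 and 22.4 on replicate 2, had ratios of -0.04 and -0.34 (limma adjusted p = 0.355).

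Mt2 gave 16099 units in ADM RNA and 1532 in cell RNA on replicate 1, and 5819 and 5035 on replicate 2. Its net signals thus differed by 10.51-fold and 1.16-fold, below the medians of 65.1 and 8.84 on both arrays. Its loess ratio on replicate 1 was -3.73, and replicate 2 had no value because of its local background. With the median background in its place, the ratios were -3.58 and -3.22 and the mean of -3.40 passed (limma adjusted p = 0.00202), while Mt1 stood at -1.48. On the 1 array with a value, Mt2 was at 2.81 with median centring and at -3.08 with the processed signals.

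Mt3, known mainly from brain, gave 909.9 and 31.9 units on replicate 1 and 391 and 76.0 on replicate 2. Its ratios of -0.43 and -0.53 lay close together, and the mean of -0.48 did not pass (limma adjusted p = 0.0631), and it was 2.32 with median centring and -0.81 with the processed signals. Mt4, known from stratified epithelium, was near background, with 50.5 and 11.7 units on replicate 1 and 19.6 and 24.6 on replicate 2 and a mean ratio of -0.29 (limma adjusted p = 0.227). Short, similar members of this family may share signal between probes.

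Zinc efflux and vesicle loading genes of the Slc30a family showed no probe past the threshold, with 8 tested, and 6 of 10 genes were seen in ADM RNA on both arrays. Slc30a1, the exporter of the plasma membrane and a known Mtf1 target, gave 703 and 12.1 units on replicate 1 and 214 and 11.8 on replicate 2, with ratios of 0.14 and 0.44 (limma adjusted p = 0.206). The others tested, Slc30a4, Slc30a5, Slc30a6, Slc30a7 and Slc30a9, had mean ratios between -0.13 and 0.49. Slc30a5 and Slc30a6, which form a pair that loads zinc into the secretory pathway, had 0.45 and 0.41 (limma adjusted p = 0.0674 and 0.135). Of the 3 probes of Slc30a9, those with 2412 and 163 units of ADM RNA on replicate 1 gave 0.49 and 0.47, and the dimmest gave 0.12. Ratios were positive in 7 of 8 probes, which stand for 6 genes, beside 57.8% of all probes tested. In limma 4 of the 8 had an unadjusted p under 0.05, as had 6484 of all 18117 tested. Of the family's probes, 1 was well above background in both RNAs on both arrays. With a variance trend, Slc30a5 and the brightest Slc30a9 probe passed (limma adjusted p = 0.04 and 0.0338).

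Zinc import genes of the Slc39a family had 1 higher probe, 0 lower and 10 that did not pass. Slc39a1 (ZIP1), a widely expressed importer of the plasma membrane, gave 6774 units in ADM RNA and 34.6 in cell RNA on replicate 1, and 2289 and 97.2 on replicate 2 (chr3:90384108-90384167, plus strand, mm7). Its ratios of 0.98 and 1.095 were nearly equal, and the mean of 1.04 ± 0.08 (SD, n = 2), a 2.05-fold higher share in ADM RNA, passed (limma adjusted p = 0.0197). The net signal was 196-fold higher in ADM RNA on replicate 1 and 23.6-fold on replicate 2. A second probe filed under Slc39a1 lies on the opposite strand, close to background.

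Slc39a7 (ZIP7), which releases zinc from the endoplasmic reticulum, gave 27920 and 207 units on replicate 1 and 12355 and 637 on replicate 2. Its ratios of 0.25 and 0.88 were both positive but apart, and the mean of 0.56 ± 0.45 (SD, n = 2) did not pass (limma adjusted p = 0.129). Slc39a13 (ZIP13), a Golgi and vesicle carrier needed for connective tissue, gave 5752 and 56.9 units and 2078 and 175 units, with ratios of 0.38 and 0.30 (limma adjusted p = 0.116). Slc39a6 had a mean ratio of 0.00, and Slc39a3, Slc39a8, Slc39a9, Slc39a10 and Slc39a11 lay between 0.13 and 0.35.

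Slc39a14 (ZIP14), which carries iron as well as zinc and manganese, was read by a pair of probes that pointed apart. The 3′ probe gave 197 and 2.85 units on replicate 1 and 79.3 and 8.68 on replicate 2, with ratios of 0.35 and 0.22 (limma adjusted p = 0.165). The other, 2895 bases upstream in the genome, gave 68.6 and 21.2 units and 26.2 and 50.6 units, with ratios of -0.52 and -1.22 (mean -0.87, limma adjusted p = 0.0659). Neither passed.

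Copper carriers gave 1 higher probe, 1 lower and 4 that did not pass. Slc31a1 (CTR1), the main copper importer, gave 6865 units in ADM RNA and 38.7 in cell RNA on replicate 1, and 2858 and 111 on replicate 2 (chr4:61823091-61823150, plus strand, mm7). The ratios of 0.90 and 1.23 were both high, and the mean of 1.06 ± 0.23 (SD, n = 2), or 2.09-fold, passed (limma adjusted p = 0.0248). Its second probe, not above background in cell RNA, had 0.21 and 0.53, and both probes were positive under the processed signals (1.41 and 3.11) and median centring (4.87 and 2.25). The relative Slc31a2 had a mean of 0.30 from one probe and -0.16 from the other, and neither passed.

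Atp7b, the copper pump mutated in Wilson disease and best known from liver, was the only tested member with more net signal in cell RNA on both arrays. It gave 68.9 units in ADM RNA and 163 in cell RNA on replicate 1, and 24.0 and 403 on replicate 2. With ratios of -3.53 and -4.58 it had the lowest mean of the members tested, -4.05 ± 0.74 (SD, n = 2), or 16.6-fold lower in ADM RNA (limma adjusted p = 0.00953). The direction was the same with median centring (-1.99) and with the processed signals (-7.13), and the net signal was 2.36-fold and 16.8-fold higher in cell RNA on replicates 1 and 2. Over the array, net signal was higher in cell RNA on both arrays for 8.38% of the probes well above background in cell RNA. The probe spans 689 bases of chr8:20777829-20778517 (minus strand, mm7), so its sequence is split between genomic blocks. It is the 1 probe of the gene among those analysed. None of the hepatocyte markers was seen in either RNA.

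Atp7a, the pump that is mutated in Menkes disease and that most tissues use, gave 2618 and 20.1 units on replicate 1 and 993 and 67.5 on replicate 2. Its ratios of 0.56 and 0.50 lay close together, with a mean of 0.53 ± 0.04 (SD, n = 2) just outside the threshold (limma adjusted p = 0.0521), and inside it with the median background (adjusted p = 0.0443). Atp7a and Atp7b, related pumps, therefore stood on opposite sides of 0, though only Atp7b passed and the difference between them was not tested.

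For the magnesium carriers no probe passed. Slc41a1, an exporter of magnesium, gave 270.0 and 11.97 units on replicate 1 and 118 and 5.39 on replicate 2, with ratios of -0.05 and 0.44 (limma adjusted p = 0.44). Its other probe, 3870 bases upstream, had a ratio of -1.22 on replicate 2 alone, with 56.05 and 18.4 units on replicate 1 and 20.8 and 50.2 on replicate 2. With the median background it stood at -0.90 (limma adjusted p = 0.0433). Slc41a2 and Slc41a3 had means of 0.22 and -0.20.

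Probes of one gene often did not give one value. Of 17 member genes with several probes, 6 had several that were tested, and in 2 of these the signs were opposite (33.3%, against 40.8% of 3997 genes on the array). The median distance between the highest and lowest ratio of a gene was 0.86 for the members and 0.29 for all genes. Position along the gene gave no common order: among the 6 genes the lowest ratio was at the most 3′ tested probe for Mt1, Slc30a9 and Slc31a1, and upstream for Slc11a2, Slc39a14 and Slc31a2. For Slc11a2, Slc39a14 and Slc41a1, the probe with the lowest ratio had net signals in cell RNA above those in ADM RNA on replicate 2.

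**Figure D4:**
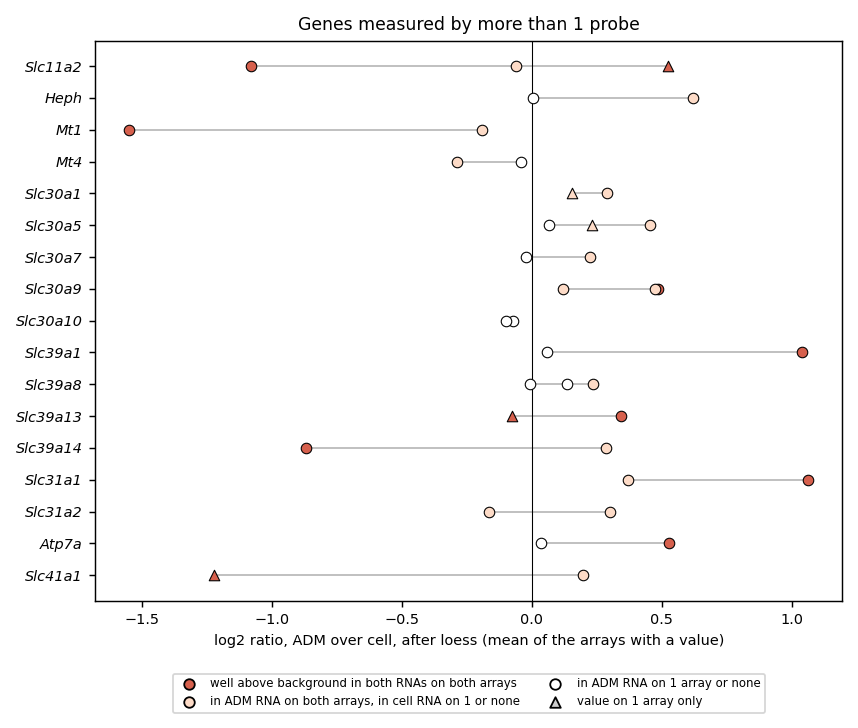
Log2 ratio of ADM over cell after loess (mean of the arrays with a value) for each probe of the 17 member genes with more than 1 probe. Dark red marks probes well above background in both RNAs on both arrays, pale red those in ADM RNA on both arrays and in cell RNA on 1 or none, white the rest, and triangles a value from 1 array. The widest distances are seen for Slc11a2, Slc41a1, Mt1 and Slc39a14.

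Other genes of metal and haem handling, listed with earlier results of these data known, were read by 83 probes of 46 genes. Of 56 tested, 4 were higher and 3 lower in ADM RNA, and 49 did not pass, so 12.5% passed, beside 16.4% of all probes. The higher ones were Ncoa4 (0.72), which delivers ferritin to the lysosome, Nfs1 (0.79), the sulphur donor of iron-sulphur clusters, and Alas1 (0.90) and Fech (0.66), the first and last enzymes of haem synthesis. Among the lower ones were Hmox1 (-1.94), which degrades haem, and Cox17 (-1.17), a copper chaperone, after loess. With median centring the genes named here had positive ratios, from 2.91 for Hmox1 to 5.10 for Nfs1, around a median of 2.04 for all probes. The probes of Alas1, Ncoa4, Nfs1 and Fech that passed stood, like those of Cp, Slc31a1 and Slc39a1, above the median in both scalings, although other tested probes of Ncoa4 and Nfs1 lay below it with median centring. Hmox1 and Cox17, like Fth1 and Mt1, changed sides.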

How the data were processed

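Mean spot intensities and median local background intensities were deposited without normalization, read out by Feature Extraction 10.5.1.1 per the file headers, which place probes on build mm7. The same software subtracted the background and balanced the dyes for the deposited processed intensities and log10 ratio (Cy5 over Cy3), and the deposited series table repeats it with array 2 turned. Flags, as deposited, give outliers, saturation and signal well above background. From each RNA 250 ng was labelled, per the labels' protocols. Spots with a spot or local background outlier flag were left out, a choice made after results without it were known, and 3198 of 41174 probes had no value on 1 array or both. The intensities were corrected with normexp (offset 50), normalized by loess with controls at weight 0, turned to ADM over cell and averaged per probe. Probes well above background (50% of spots or more) in either RNA on both arrays were tested against 0 with limma 3.58.1 in R 4.3.3 (1 residual and 2.91 prior degrees of freedom, Benjamini-Hochberg at 0.05). P-values combine the spread of a probe's 2 arrays, which may be technical, with a prior spread pooled over all probes tested. The prior has the greater weight, so a small SD of a probe adds little. Median centring had infinite prior degrees of freedom, so its p-values do not reflect a probe's own spread. Code was tested on simulated data. Members and gene lists were chosen with earlier results of these data known. Text values were given for every member, in full for members with a probe past the threshold and for fixed genes of each role. RefSeq tables gave promoters (GRCm38.p6), and 42 of 45 symbols matched. Protein and probe sequences were not used here. Alternatives were the scaling, the offset, the flags, the filter, the moderation, the brightest probe per gene, and 1 array left out. One gene outside the members is not reported here.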

Additional observations from a re-analysis of the deposited data

How the results depend on the processing

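All 7 calls among the members kept their direction and call with offset 10, with the filter on both RNAs and with the median background. Median centring kept 4, the processed signals, the variance trend, robust moderation and no filter kept 6 each, the brightest probe per gene kept all 6 it tested, and keeping outlying backgrounds kept 0. Calls over all probes (members in brackets) were 10778 higher and 265 lower, 11043 in all (29, 1 and 30) with median centring, 5798 higher, 8372 in all (22 and 26) with the processed signals, 1864 higher and 3059 lower, 4923 in all (7 higher, 13 in all) with offset 10, 1706 higher (8, and 13 in all) with a trend, and 0 in each direction (0) with outlying backgrounds kept. The median background, added after the data were seen, gave 5 higher and 8 lower, 13 in all, among the members. The members' median was 2.29, 1.63, 0.51, 0.013, 0.062 and 0.067 with median centring, processed signals, offset 10, backgrounds kept, no filter and the filter on both RNAs. Signs turned with median centring for Fth1 (3.77), Mt1 (3.30 and 0.61), Mt3 (2.32), Slc11a2 (1.80 and 0.093), Slc30a4 (2.25), Slc39a6 (3.09), Slc31a2 (1.58) and Slc41a3 (2.30); with processed signals for Slc11a2 (1.29), Mt1 (0.27), Slc30a4 (0.30), Slc39a6 (0.16) and Slc31a2 (0.37); with backgrounds kept for Trf (-0.0010) and Slc39a6 (0.015); and with the median background for Slc39a6 (0.0013). The median of all tested probes was 2.04 with median centring and 0.69 with processed signals. With median centring the listed values of Slc11a2 and Slc31a2 and the lower one of Mt1 lay below it, and the others above. With processed signals only Slc11a2 lay above it. Why signs turned was not tested. With 1 array left out, which leaves no test, the members' median ran from 0.18 to 0.26, probes 2-fold higher or lower numbered 207 to 469 and 1347 to 2063 over all probes, against 201 and 1174 on both arrays, and 0 to 4 and 3 to 5 among the members. No paired analysis was possible because each array already pairs both RNAs of a replicate and there is 1 group. Dim cell signals limit what ratios can show for the 18 probes seen in ADM RNA alone.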
